A study of Bos taurus with 14 samples.

Results

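The miR-15 and miR-16 family was examined in peripheral white blood cells (PWBC) of Angus-Simmental crossbred heifers. Its members were taken by mature name as bta-miR-15a, bta-miR-15b, bta-miR-16a, bta-miR-16b, bta-miR-195 and bta-miR-497, which are 6 of the 1030 mature miRNAs named in the count table. Small RNA was sequenced from blood drawn at weaning from 14 heifers, with 1 library per animal. The 7 fertile heifers (FH) later became pregnant to artificial insemination (AI). The 7 subfertile heifers (SFH), labelled as not pregnant to AI, were by the study's methods still not pregnant after the natural service season that followed. The comparison asks whether miRNA levels at weaning differed between heifers with different later breeding outcomes. PWBC are a mixture of cell types, so fewer cells of a type and less of a miRNA per cell cannot be told apart.

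MicroRNAs are short RNAs that guide silencing proteins to matching sites in messenger RNAs, and the bases near the 5′ end, called the seed, do most of the matching. Members of the miR-15 and miR-16 family share a seed and are known to repress cyclins and other drivers of the cell cycle, as well as the survival factor BCL2. The human miR-15a and miR-16 cluster is known for its loss in chronic lymphocytic leukemia, a cancer of B cells.

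RefSeq (assembly ARS-UCD2.0) places the genes of the 6 members as 3 pairs of close neighbours. The genes of miR-15b and miR-16b overlap SMC4, which encodes a subunit of the condensin complex that compacts chromosomes. The genes of miR-15a and miR-16a overlap the transcribed pseudogene LOC100847818, and those of miR-195 and miR-497 overlap the long non-coding RNA gene LOC107131510. Each member had 1 entry in the count table, so no choice between precursors was needed. In contrast, bta-miR-103 had 2 entries, whose counts differed by 0.694% to 1.61% in each heifer. Mature miR-16 copies are nearly identical in sequence, and how reads matching several miRNAs were counted was not given in the sources used here, so the split between miR-16a and miR-16b is uncertain.

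Library depth, as the sum of mature miRNA counts, ranged from 1754971 to 5468341 per heifer. Levels are given as CPM, the count scaled to a common library total. Where a heifer had no count, up to 3 counts (0.549 to 1.71 CPM, depending on the heifer) cannot be told from 0, a limit for counting error only. Two-sided tests were used throughout. FH heifer 25 stood apart for this family, with the lowest CPM of miR-15a, miR-16a and miR-16b among the 14 heifers but not of miR-15b. SFH heifer 30 had the lowest miR-195 of the 14 heifers and the highest miR-15b of the SFH group. Values without these animals are given beside some of the results they moved.

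All 6 members were among the 341 miRNAs that reached 1 CPM in 7 or more heifers and were tested, and 0 of them was a differentially expressed miRNA (DEMI) between SFH and FH. The thresholds for DEMIs were those of the study, an unadjusted p-value up to 0.05 with a log2 fold change of 0.5 or more in size. The study applied them to DESeq2 results. In edgeR, they were passed here by 13 of the 341 miRNAs (3.81%), which is not the study's own set. Levels in SFH were higher for 5 of these and lower for 8. After Benjamini-Hochberg (BH) adjustment in edgeR, 0 of 341 passed (0%), although 20 had an unadjusted p-value up to 0.05. Such an unadjusted p-value was reached by 0 of the 6 members in each tool, against 20 of all 341 miRNAs in edgeR (5.87%), 21 in DESeq2 (6.16%) and 28 in limma-voom (8.21%). The median log2 fold change (SFH relative to FH) was 0.12 over the members and 0.06 over all 341 miRNAs. The estimate was positive for 5 members and negative for 1, although the sign for miR-16a and miR-195 changed with the scaling factors or the tool.

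**Figure D1:**
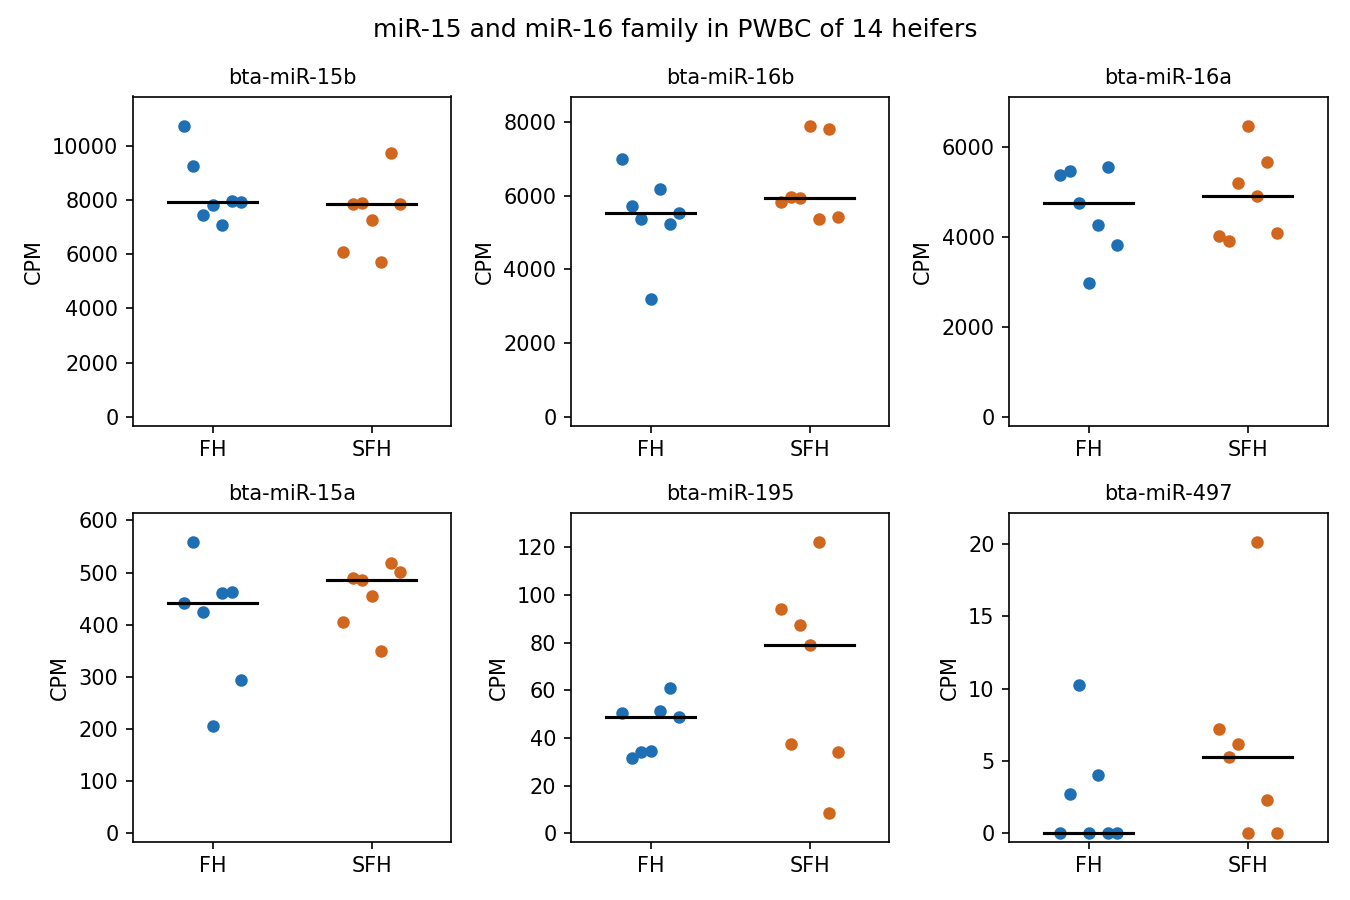
Deposited CPM of the 6 family members (y axis, starting near 0 and scaled separately for each miRNA) in FH and SFH (x axis), with 1 point per heifer, 7 heifers per group, and a line at the group median. The groups overlap for all 6 members, and miR-497 lies at 0 in 4 FH and 2 SFH heifers.

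In the cluster within SMC4, miR-15b was the most abundant member of the family in 13 of 14 heifers. Its CPM ran from 7083 to 10735 in FH (median 7932) and from 5704 to 9719 in SFH (median 7838). The groups overlapped, although 6 of 7 SFH heifers lay below the FH median. The log2 fold change was −0.22 (SE 0.15), with an edgeR adjusted p-value of 0.898. It was −0.31 without SFH heifer 30 and −0.16 without FH heifer 20. An exact permutation test on mean log2(TMM-normalized CPM + 0.5) gave p = 0.0997 (n = 7 per group).

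The cluster partner miR-16b ran from 3200.1 to 6989 CPM in FH (median 5523) and from 5353 to 7898 CPM in SFH (median 5925). FH heifer 25 lay far below the SFH range, and the ranges of the other heifers overlapped. SFH relative to FH gave a log2 fold change of 0.15 (SE 0.17), with an edgeR adjusted p-value of 0.947, and of 0.05 without FH heifer 25. The exact permutation p-value was 0.395 (n = 7 per group). Thus, the partners in SMC4 had estimates of opposite sign, neither of them past a threshold.

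In the cluster of miR-15a and miR-16a, the pair lost in human leukemia, miR-15a was the scarcer member. miR-15a ran from 206 to 559 CPM in FH (median 442) and from 350.4 to 518 CPM in SFH (median 486). The SFH values lay inside the FH range, and FH heifers 25 and 31 were the lowest of all. Its log2 fold change was 0.09 (SE 0.23), with an edgeR adjusted p-value of 0.977 and an exact permutation p-value of 0.499 (n = 7 per group). Without FH heifer 25 the estimate was −0.02.

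For miR-16a the CPM was 2968 to 5563 in FH (median 4756) and 3905 to 6472 in SFH (median 4916). By deposited CPM the groups overlapped over most of their ranges, with FH heifer 25 lowest and SFH heifer 26 highest. With the TMM scaling used in the tests, FH heifer 29 was highest, at 6806 CPM against 6506 CPM in SFH heifer 26. The TMM scaling factor of FH heifer 29 was 0.817, against 0.963 to 1.08 in the other heifers. The log2 fold change of 0.01 (SE 0.18) had an edgeR adjusted p-value of 0.978, and the exact permutation p-value was 0.894 (n = 7 per group). Its interval of 2 SE on either side ran from −0.36 to 0.38.

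The remaining pair was scarce. miR-195, known for repressing cell cycle genes in heart muscle, ran from 31.7 to 61.0 CPM in FH (median 48.8) and from 8.34 to 122 CPM in SFH (median 78.8). SFH heifers thus lay on both sides of the FH range, with heifer 30 lowest and heifer 28 highest. The estimated log2 fold change was 0.47 (SE 0.49), with an edgeR adjusted p-value of 0.947 and an exact permutation p-value of 0.783 (n = 7 per group). It was 0.24 without SFH heifer 28 and 0.67 without SFH heifer 30.

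miR-497 had a median of 0 CPM and a maximum of 10.3 CPM in FH, and a median of 5.26 CPM and a maximum of 20.2 CPM in SFH. It had no count in 4 FH and 2 SFH heifers, so the groups shared the lower end of the range. For this scarce miRNA the log2 fold change was 1.27 (SE 1.47), with an edgeR adjusted p-value of 0.947 and an exact permutation p-value of 0.269 (n = 7 per group). It was 0.50 without SFH heifer 28 and 2.30 without FH heifer 24. In the 6 heifers without a count of miR-497, its neighbour miR-195 had 62 to 275 counts. Heifers at 0 were common at such depth. Among 56 other tested miRNAs with 0.5 to 2 times its total count, the median number of heifers at 0 was 5, and 23 had at least 6 heifers at 0.

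By mean CPM, the order of levels was miR-15b, miR-16b, miR-16a, miR-15a, miR-195 and miR-497, ranked 32, 38, 41, 98, 178 and 323 among the 341 miRNAs. Mature miRNAs are of nearly equal length, so counts were not divided by length, although capture differs between sequences and the order is one of read counts. Neighbours in the order were compared within heifers by an exact sign-flip permutation test. The order was taken from the same heifers, so these p-values describe how evenly each step was held and are no independent test of it. Thus, miR-15b exceeded miR-16b by 1.35-fold on geometric mean in 13 of 14 heifers (exact sign-flip p = 0.000488, adjusted over 5 comparisons 0.000488). The exception was SFH heifer 26, in which miR-16b was the highest member. In turn, miR-16b exceeded miR-16a by 1.24-fold, also in 13 of 14 heifers (exact sign-flip p = 0.000366, adjusted p = 0.000458), with FH heifer 29 as the exception. The split of reads between miR-16a and miR-16b is uncertain, and the p-value does not cover how reads were assigned. The steps from miR-16a to miR-15a (11.1-fold), from miR-15a to miR-195 (8.88-fold) and from miR-195 to miR-497 held in all 14 heifers, each with an exact sign-flip p = 0.000122, the smallest the test can give (adjusted p = 0.000203). The last step was at least 17.3-fold on geometric mean, with miR-497 set to 3 counts where it had fewer.

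The family as a whole took 1.42% to 2.36% of all mature counts in FH (median 1.80%) and 1.64% to 2.37% in SFH (median 1.82%). The groups overlapped almost fully, with FH heifer 25 lowest and SFH heifer 30 highest. The small difference in the mean log2 total (SFH relative to FH) was −0.038 with TMM and 0.031 by library totals, so its sign depended on the scaling. miR-15a, miR-15b, miR-16a and miR-16b together made up at least 99.1% of the family in each heifer. Within the family, the share of miR-15b was 44.5 ± 5.12% (mean ± SD of 7 heifers) in FH and 38.9 ± 4.24% in SFH. miR-16b took 28.8 ± 3.71% in FH and 32.8 ± 2.16% in SFH. The shares of the other members overlapped more closely, at 24.3 ± 2.86% and 25.5 ± 3.20% for miR-16a, and 2.14 ± 0.470% and 2.40 ± 0.288% for miR-15a, in FH and SFH in turn.

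Ratios between members within a heifer need no scaling between libraries. Those that use miR-16a or miR-16b alone rest on the uncertain split of reads between these miRNAs. The ratio of miR-16b to its cluster partner miR-15b was 0.410 to 0.872 in FH (median 0.655) and 0.689 to 1.09 in SFH (median 0.803). All 7 SFH heifers lay above the FH median, but the ranges overlapped. On the log2 scale the mean was −0.63 ± 0.33 in FH and −0.24 ± 0.24 in SFH, a difference of 0.39 (exact permutation p = 0.0192, n = 7 per group). This ratio was chosen after the data were seen, and its p-value adjusted over all 6 ratios was 0.107, which does not pass the threshold. Without FH heifer 25 the difference was 0.28. Without FH heifer 27 it was 0.46, with an adjusted exact permutation p-value of 0.0210. In the other cluster, the log2 ratio of miR-16a to miR-15a differed by −0.13 between SFH and FH (exact permutation p = 0.415, adjusted over the 6 ratios p = 0.415, n = 7 per group). With a heifer left out it ran from −0.20 (without SFH heifer 26) to −0.057 (without SFH heifer 21), and it was −0.073 without FH heifer 25.

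**Figure D2:**
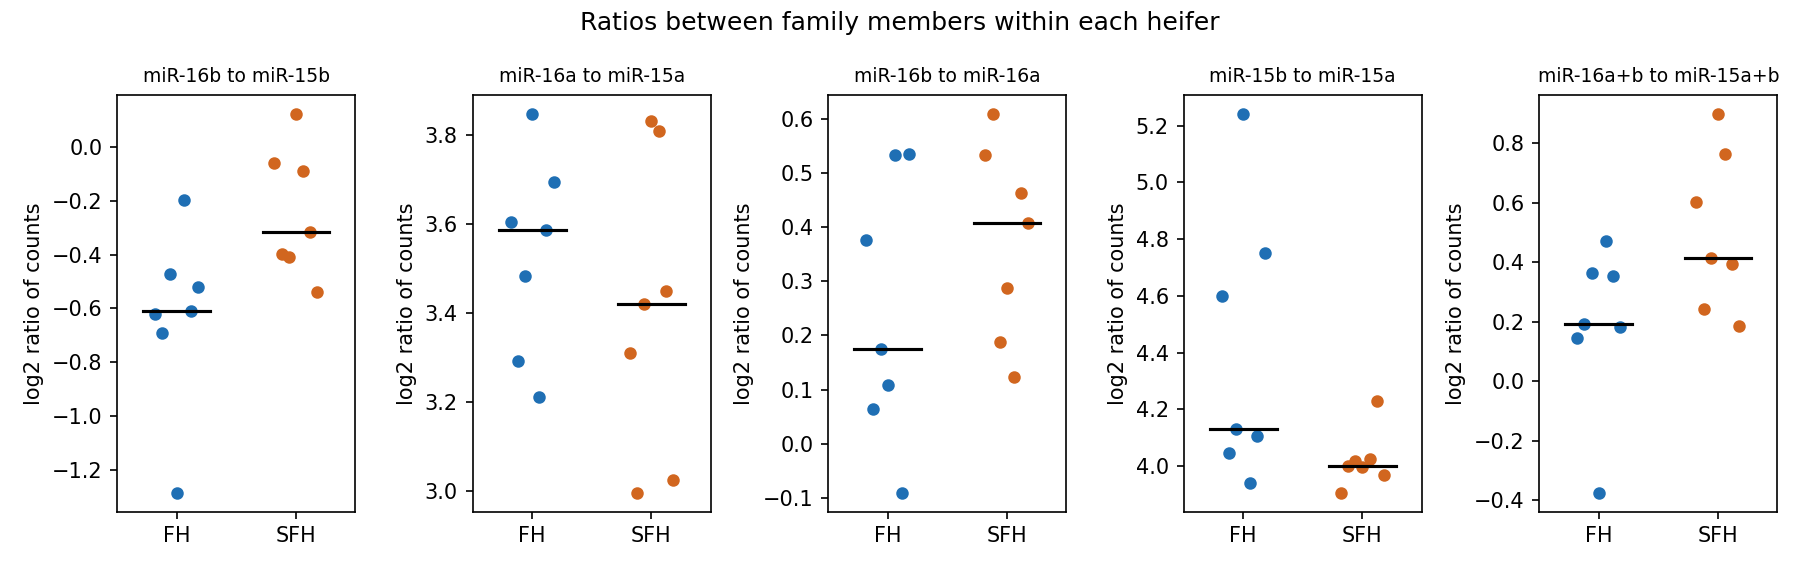
Log2 ratio of counts (y axis, scaled separately for each ratio) between family members in FH and SFH (x axis), with 1 point per heifer, 7 heifers per group, and a line at the group median. All 7 SFH heifers lie above the FH median for miR-16b to miR-15b, and FH heifer 25 is the lowest FH heifer for it at −1.28 and the highest for miR-15b to miR-15a at 5.24.

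Among the 4 ratios between paralogues, adjusted together, none passed an adjusted p-value of 0.05. The ratio of miR-15b to miR-15a was 15.3 to 37.8 in FH (median 17.5) and 14.98 to 18.7 in SFH (median 15.996). The SFH values were close together, while FH heifers 20, 25 and 31 lay above all SFH heifers. The log2 difference was −0.38 (exact permutation p = 0.0536, adjusted p = 0.107, n = 7 per group), and it was −0.24 without FH heifer 25. Without FH heifer 27 it was −0.46, with an adjusted exact permutation p-value of 0.0373. The sum of miR-16a and miR-16b relative to that of miR-15a and miR-15b was 0.771 to 1.39 in FH (median 1.14) and 1.14 to 1.86 in SFH (median 1.33). Here the log2 difference was 0.31 (exact permutation p = 0.0466, adjusted p = 0.107, n = 7 per group), and the groups overlapped. It was 0.22 without FH heifer 25. The ratio of miR-16b to miR-16a was 0.939 to 1.45 in FH and 1.09 to 1.52 in SFH, with a log2 difference of 0.13 (exact permutation p = 0.273, adjusted p = 0.273, n = 7 per group). With a heifer left out this ran from 0.074 (without FH heifer 29) to 0.18 (without FH heifer 31). That of miR-195 to miR-497, which rests on the pseudocount where miR-497 was at 0, differed by −1.73 on the log2 scale (exact permutation p = 0.247, adjusted p = 0.273, n = 7 per group).

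The abundant members varied less between heifers than most tested miRNAs, and lay below the median of miRNAs of like abundance. The coefficient of variation (CV) of TMM-normalized CPM was 14.8% in FH and 19.1% in SFH for miR-15b, against medians of 57.9% and 47.7% over the 341 miRNAs. For miR-16b it was 21.2% and 19.7%, and without FH heifer 25 the FH value was 11.3%. For miR-16a the CV was 25.6% in FH and 21.9% in SFH. miR-15a had a CV of 30.8% in FH and 13.5% in SFH, and the FH value was 22.15% without heifer 25. miR-195 and miR-497 were more variable, at 32.8% and 156% in FH and 61.6% and 120% in SFH. These differences in CV between groups were not tested. By edgeR's biological coefficient of variation, miR-15b ranked 11 from the lowest of 341, followed by miR-16b (23), miR-16a (30), miR-15a (69), miR-195 (174) and miR-497 (316). Beside other miRNAs with 0.5 to 2 times its mean CPM, miR-15b had a value of 24.7% against a median of 28.7% over 28 miRNAs, of which 4 were lower. For miR-16b it was 26.8% against 29.3%, with 9 of 29 lower, and for miR-16a 28.2% against 30.1%, with 9 of 26 lower. For miR-15a it was 34.2% against 38.7%, with 8 of 45 lower. For miR-195 it was 67.4% against 72.1%, with 28 of 66 lower. In contrast, miR-497 lay above the median, at 176.6% against 162.9%, with 40 of 61 lower. These positions were not tested.

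Co-variation was measured over the 15 pairs of members, on log2(TMM-normalized CPM + 0.5) of the 14 heifers. An unadjusted permutation p-value of at most 0.05 for Pearson's r was found in 5 pairs, against 166 (8.20%) of the 2025 pairs of a member with any tested miRNA, and 0 member pairs passed BH adjustment over these 2025 pairs. The smallest adjusted p-value of a member pair was 0.263. The median r was 0.15 over the member pairs and 0.01 over all 57970 pairs of tested miRNAs (quartiles −0.22 and 0.24).

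The closest pair was miR-16a with miR-16b, encoded in different clusters, with r = 0.78 (permutation p = 0.00104, adjusted p = 0.263) and Spearman's rho = 0.72 (permutation p = 0.00559, adjusted p = 0.581). It was r = 0.72 when the 2 heifers with miR-16a farthest from its median were left out, 0.78 within FH and 0.81 within SFH. The sharing of reads between these near-identical miRNAs was not tested. miR-15a with miR-16b gave r = 0.74 (permutation p = 0.00509, adjusted p = 0.424) and rho = 0.50 (permutation p = 0.0713, adjusted p = 0.825). This relation rested on FH heifers 25 and 31, without which r was 0.37, and r was 0.82 within FH and 0.52 within SFH.

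Partners of the same cluster varied in how closely they went together, and no difference between pairs was tested. miR-15a with miR-16a gave r = 0.70 (permutation p = 0.00338, adjusted p = 0.424) and rho = 0.59 (permutation p = 0.0302, adjusted p = 0.690), falling to r = 0.41 without FH heifers 25 and 31. Within groups it was r = 0.92 in FH (exact permutation p = 0.00278, n = 7) and 0.20 in SFH (exact permutation p = 0.642, n = 7). By rank it was rho = 0.82 in FH (exact permutation p = 0.0341) and 0.07 in SFH (exact permutation p = 0.906). These within-group p-values were not adjusted, and the FH value was not calculated without heifers 25 and 31. miR-15b with miR-16b gave r = 0.30 (permutation p = 0.293, adjusted p = 0.749) and rho = 0.37 (permutation p = 0.197, adjusted p = 0.837), with 0.40 within FH, 0.62 within SFH and 0.21 without the 2 farthest heifers. Without FH heifer 25 it was r = 0.51, without SFH heifer 30 r = 0.18, and on values centred on the mean of each group r = 0.49. miR-195 with miR-497 gave r = 0.15 (permutation p = 0.632, adjusted p = 0.906) and rho = 0.30 (permutation p = 0.289, adjusted p = 0.901), with −0.46 within FH, 0.33 within SFH and 0.04 without the 2 farthest heifers. By rank, the SFH value was rho = 0.79 (exact permutation p = 0.0413, n = 7, not adjusted) and the FH value rho = −0.37 (exact permutation p = 0.419, n = 7).

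**Figure D3:**
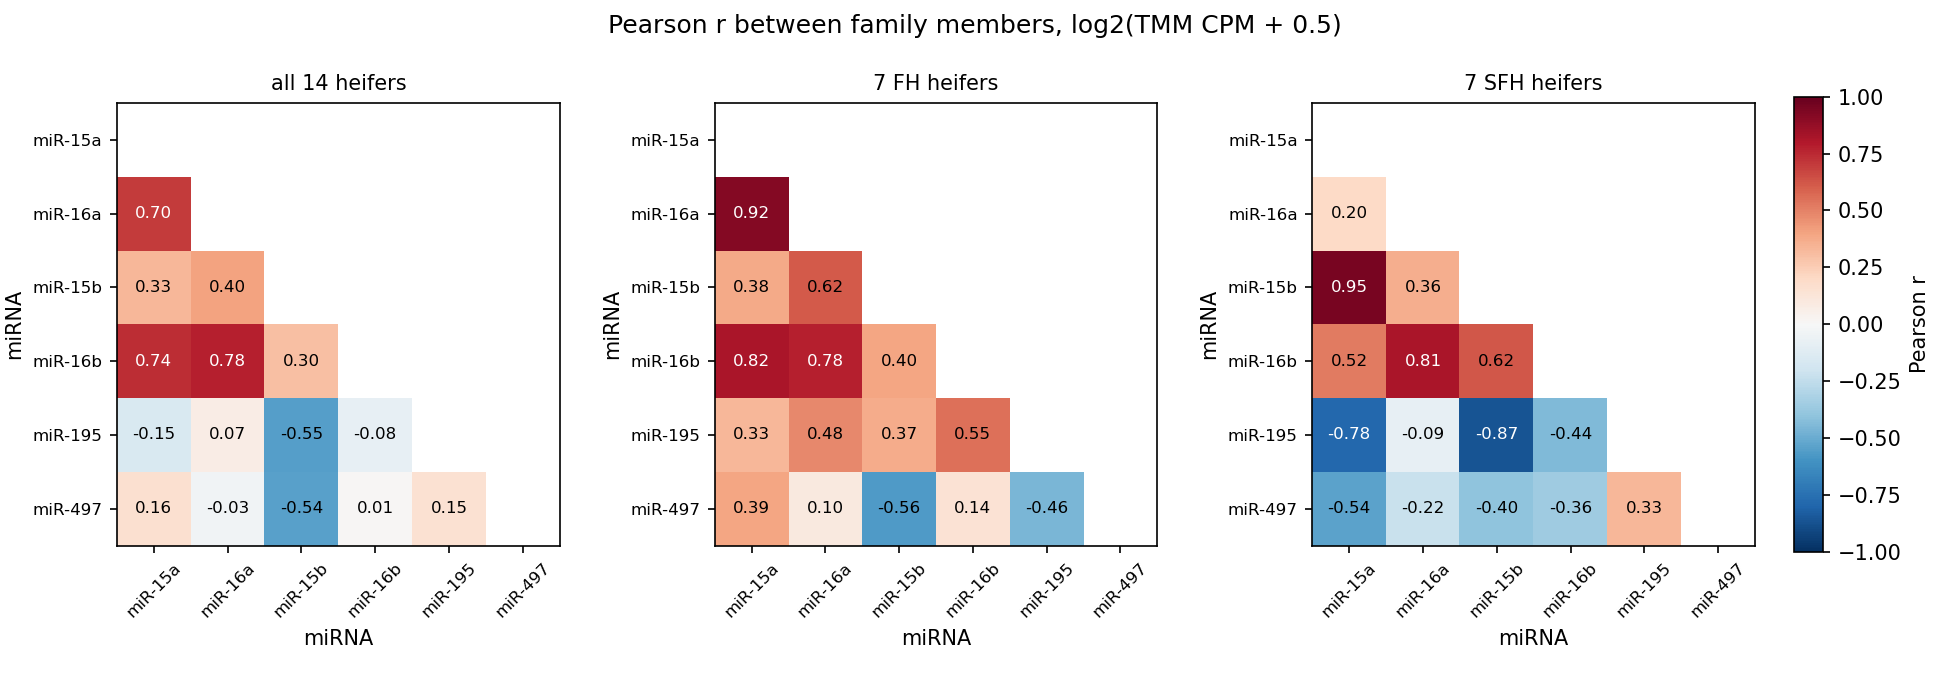
Pearson's r between each pair of family members (miRNAs on both axes, with cluster partners next to each other) on log2(TMM-normalized CPM + 0.5), over all 14 heifers, 7 FH heifers and 7 SFH heifers, with color from −1 (blue) to 1 (red). The pair of miR-16a and miR-16b lies between 0.78 and 0.81 in the 3 panels, while miR-15a and miR-15b gave 0.38 in FH and 0.95 in SFH.

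Some pairs had unlike values in the FH and SFH groups, and the difference between groups was not tested. miR-15a with miR-15b gave r = 0.33 over all heifers (permutation p = 0.247, adjusted p = 0.730; rho = 0.42, permutation p = 0.137, adjusted p = 0.825) and 0.76 without FH heifers 25 and 31. Within SFH it was r = 0.95 (exact permutation p = 0.000794, n = 7; rho = 0.89, exact permutation p = 0.0123), and within FH r = 0.38 (exact permutation p = 0.413, n = 7). miR-15b with miR-195 gave r = −0.55 (permutation p = 0.0409, adjusted p = 0.579) and rho = −0.48 (permutation p = 0.0843, adjusted p = 0.825), and −0.55 without the 2 farthest heifers. Its within-group values had opposite signs, with r = −0.87 in SFH (exact permutation p = 0.00655, n = 7) and 0.37 in FH (exact permutation p = 0.409, n = 7). The rank value in SFH was rho = −0.75 (exact permutation p = 0.0663, n = 7), and without SFH heifer 30 the SFH value was r = −0.68 (exact permutation p = 0.112, n = 6). miR-15a with miR-195 also had opposite signs, with r = −0.78 in SFH (exact permutation p = 0.0361, n = 7; rho = −0.93, exact permutation p = 0.00675) and 0.33 in FH (exact permutation p = 0.470, n = 7). Over all heifers it was r = −0.15 (permutation p = 0.577, adjusted p = 0.895; rho = −0.32, permutation p = 0.265, adjusted p = 0.894), with −0.52 without FH heifers 25 and 31. Without SFH heifer 30 the SFH value was r = −0.75 (exact permutation p = 0.0750, n = 6). These within-group p-values were not adjusted. miR-15b with miR-497 gave r = −0.54 (permutation p = 0.0471, adjusted p = 0.591) and rho = −0.48 (permutation p = 0.0816, adjusted p = 0.825). It was −0.29 without the 2 farthest heifers, −0.56 within FH and −0.40 within SFH. The other pairs lay between r = −0.084 and 0.40 over all heifers. By Pearson's r, all of these but miR-15b with miR-16a were positive within FH and negative within SFH, but some values lay near 0. In FH, miR-16a with miR-497 gave r = 0.097 (exact permutation p = 0.848) and miR-16b with miR-497 r = 0.14 (exact permutation p = 0.833). Their FH rank values were negative, at rho = −0.039 and −0.079, and miR-497 was at 0 in 4 FH heifers. In SFH, miR-16a with miR-195 gave r = −0.085 (exact permutation p = 0.867). miR-15a with miR-497 gave r = 0.39 in FH and −0.54 in SFH, and −0.50 over all heifers without FH heifers 25 and 31. For miR-16b with miR-195 it was 0.55 in FH and −0.44 in SFH, and −0.47 over all heifers without the 2 farthest. Without SFH heifer 30, r went from −0.084 to 0.37 for miR-16b with miR-195 and from 0.073 to 0.41 for miR-16a with miR-195.

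Outside the family, the miRNA most like miR-15b over the 14 heifers was bta-miR-574, with r = 0.91 and rho = 0.93. It was the 1 pair of the 2025 (0.0494%) with an adjusted permutation p-value of at most 0.05, at 0.0405 for r and 0.0202 for rho. The unadjusted p-value for r (2.0e-05) lies near the smallest that 100000 resamples can give, so the side of the threshold on which the adjusted value falls is not precise. The likeness was present within FH (r = 0.89) and within SFH (r = 0.99), with the 2 heifers of most distant miR-15b left out (r = 0.84), and with each heifer left out in turn (r = 0.88 to 0.93). bta-miR-574 averaged 251 CPM and was lower in SFH by the unadjusted thresholds, as 1 of the 13 that passed them. Its log2 fold change was −0.79 (SE 0.27), with an edgeR p-value of 0.00809 before and 0.415 after adjustment.

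Other close patterns are given as a description over the 14 heifers. miR-16a was most like bta-miR-6119-5p (r = 0.84, rho = 0.89), followed by bta-miR-1388-3p (r = 0.72, rho = 0.68) and bta-miR-378c (r = 0.72, rho = 0.64). miR-15a was most like bta-miR-32 (r = 0.77, rho = 0.73), bta-miR-106a (r = 0.71, rho = 0.65) and bta-miR-363 (r = 0.68, rho = 0.55), of which the last fell to r = 0.17 with the 2 heifers of most distant miR-15a left out, and bta-miR-32 to r = 0.49 with 1 heifer left out. Next for miR-15b came bta-miR-1842 (r = 0.78, rho = 0.77) and bta-miR-92b (r = 0.68, rho = 0.58). For miR-16b they were bta-miR-363 (r = 0.74, rho = 0.46), bta-miR-335 (r = 0.73, rho = 0.47) and bta-miR-2284k (r = 0.71, rho = 0.49), each with r of at most 0.47 when the 2 heifers of most distant miR-16b were left out. miR-195 was most like bta-miR-1246 (r = 0.71, rho = 0.23), bta-miR-2448-3p (r = 0.62, rho = 0.36) and bta-miR-2285bc (r = 0.61, rho = 0.24), and these rested on the 2 farthest heifers, without which r was −0.19 to 0.13. miR-497 was most like bta-miR-10164-3p (r = 0.73, rho = 0.77), then bta-miR-2285bd and bta-miR-2285ar, which had the same values (r = 0.69, rho = 0.64).

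Relatives outside the 6 members were also examined by name. bta-miR-424-5p belongs to the same seed family, and bta-miR-503-5p, its neighbour in RefSeq, has a related seed. bta-miR-424-5p was at 0 in 6 heifers, with medians of 5.42 CPM in FH and 1.502 CPM in SFH and overlapping ranges, a log2 fold change of −1.76 (SE 1.48) and an edgeR adjusted p-value of 0.947. bta-miR-503-5p, with 162 counts over all heifers, did not pass the filter. bta-miR-103 and bta-miR-107, whose seed is that of miR-15 and miR-16 shifted by a base, were tested as well. bta-miR-103 was above all family members in abundance, at 7759 to 12058 CPM in FH (median 10766) and 9529.7 to 14901 CPM in SFH (median 14218). Its ranges overlapped, with a log2 fold change of 0.25 (SE 0.15), an edgeR adjusted p-value of 0.890 and an exact permutation p-value of 0.0594 (n = 7 per group). bta-miR-107 had medians of 479 CPM in FH and 490.5 CPM in SFH, with a log2 fold change of 0.20 (SE 0.22) and an edgeR adjusted p-value of 0.947.

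Marker miRNAs of blood and other cells were summed per heifer, in TMM-normalized CPM, beside the family. White cell miRNAs were abundant. The lymphocyte list (2 of 2 detected, bta-miR-150 highest) had medians of 78339 CPM in FH and 77154 CPM in SFH, the granulocyte and monocyte marker bta-miR-223 medians of 16776 and 19802 CPM, and the list for all leukocytes (2 of 2 detected, bta-miR-142-5p highest) medians of 10813 and 13823 CPM. The erythroid list was included because miR-16 is also abundant in red blood cells. Of its 3 markers, bta-miR-451 and bta-miR-486 were detected and bta-miR-144 had no count in any heifer, and its sum was 1552 to 3592 CPM in FH (median 2295) and 1470.3 to 9345 CPM in SFH (median 2413). SFH heifer 30 held the highest sum.

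The family total followed no list past the adjusted threshold over the 9 lists. It gave r = 0.59 with the lymphocyte list (permutation p = 0.0288, adjusted p = 0.198; rho = 0.57, permutation p = 0.0357, adjusted p = 0.161), with 0.39 without the 2 farthest heifers, 0.61 within FH and 0.57 within SFH. With the fibroblast and smooth muscle list (3 of 3 detected, bta-miR-143 highest) it gave r = −0.54 (permutation p = 0.0441, adjusted p = 0.198; rho = −0.60, permutation p = 0.0276, adjusted p = 0.161), with −0.43 without the 2 farthest heifers, −0.30 within FH and −0.72 within SFH. That list was scarce, with medians of 219.7 CPM in FH and 321.7 CPM in SFH. With the erythroid list it gave r = 0.13 (permutation p = 0.679, adjusted p = 0.764; rho = −0.12, permutation p = 0.695, adjusted p = 0.782), and r was −0.32 without SFH heifer 30. FH heifer 25, lowest for the family, had the lowest sum of the list for all leukocytes (5404 CPM), whereas its lymphocyte sum (74110 CPM) lay inside the FH range and its granulocyte and monocyte marker (19095 CPM) above the FH median. It also had the highest epithelial sum (257 CPM) and liver marker (4.80 CPM) of the 14 heifers, and the lowest platelet and endothelial sum of the FH group (23.1 CPM). The part of cell composition in its values was not tested.

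The remaining lists were low in most heifers. The platelet and endothelial list (2 of 2 detected, bta-miR-126-3p highest) had medians of 50.7 CPM in FH and 33.5 CPM in SFH. The epithelial list had medians of 179.6 and 171.5 CPM, nearly all of it bta-miR-200c, while bta-miR-200a, bta-miR-200b, bta-miR-141 and bta-miR-205 averaged below 1 CPM. The skeletal and heart muscle list (3 of 3 detected, bta-miR-1 highest) had medians of 5.89 and 6.58 CPM, with 275 CPM in SFH heifer 21 and 84.3 CPM in FH heifer 20, and the liver marker bta-miR-122 medians of 0 and 0 CPM. The r of the family total with these 4 lists and with the granulocyte and leukocyte markers lay between −0.25 and 0.48, with adjusted permutation p-values of 0.252 to 0.836, and rho between −0.26 and 0.45.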

How the data were processed

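Small RNA libraries of PWBC from 14 heifers (7 FH, 7 SFH) were made with a NEXTflex kit and sequenced single-end. The authors trimmed adapters and 4 bases at each end with cutadapt, checked reads with FastQC 0.11.9 and MultiQC 1.12, and aligned them with miRDeep2 to ARS-UCD1.2 and miRBase without seed mismatch. The authors deposited raw counts per mature miRNA and precursor (1207 lines). They also deposited CPM of 341 miRNAs, made with edgeR 3.28.1. These CPM equalled counts over the total of the 341 miRNAs. The submitters' processing notes also list DESeq2 1.26.0.

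Of several entries for a mature miRNA, that with the highest total was used. Those reaching 1 CPM in 7 or more heifers were fitted by edgeR 4.0.16 (TMM, quasi-likelihood F-test, group only, R 4.3.3), with BH adjustment over all 341. The SE was taken from the fold change and F. Exact permutation tests between groups covered 3432 arrangements of the heifers (smallest p-value 0.000583), those of correlations within a group all 5040 pairings of 7 heifers (0.000198) or 720 of 6 (0.00139), and correlations over 14 heifers 100000 resamples. The pseudocount was 0.5. Each library is a different heifer, so p-values measure the spread between animals. No pair of libraries was identical. Python 3.11.15, numpy 2.4.6, pandas 2.3.3, scipy 1.17.1 and matplotlib 3.10.9 were used, and the tests were tested on simulated data.

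Named miRNAs were the 6 members, their seed relatives, the 3 miRNAs of highest r with each member, and markers in 9 lists. Members and lists were chosen with earlier results of these data known. Mature sequences were not used here, so the planned choice of seed relatives by sequence was made by name. No p-value is given for the family total between groups, which is a score over chosen members. RefSeq of ARS-UCD2.0, another assembly than that of the counts, was used for names, neighbours and overlaps, and all 6 members matched by name. Alternatives were DESeq2 1.42.0, limma-voom (limma 3.58.1), other scaling factors and filters, every precursor entry kept, the log2 total count as a covariate, other pseudocounts, group-centred values and each heifer left out, with the 341 miRNAs kept. The cluster ratios, the spread and the marker relations without FH heifer 25, and the SFH correlations without SFH heifer 30, were added after seeing the data.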

Additional observations from a re-analysis of the deposited data

Results flagged for a closer look

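A value far from the other heifers of its group was found in 3 of 26 groups of 7 heifers tested, where chance gives about 1 in 20 groups. The groups are levels, totals and ratios of the same members, so they are not independent and this rate is no test of the number found. Both values flagged in FH heifer 25 include the same miR-16b counts. In FH heifer 25, miR-16b was 11.69 on the log2 CPM scale, against 12.37 to 12.75 in the other FH heifers, a gap of 0.642 of the group's range. In the same heifer, the log2 ratio of miR-16a and miR-16b to miR-15a and miR-15b was −0.38, against 0.15 to 0.47 in the other FH heifers, a gap of 0.618 of the range. In SFH heifer 30, the log2 ratio of miR-15b to miR-15a was 4.23, against 3.91 to 4.02 in the other SFH heifers, a gap of 0.632 of the range. The last of these lies within the FH range of 3.94 to 5.24.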

How the results depend on the processing

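No member passed the unadjusted thresholds under any of 9 other settings of the fit or with any heifer left out. miR-497 could not be tested where a CPM of at least 1 was required in all 14 heifers. The number of all miRNAs past these thresholds was 23 in limma-voom and 126 without a filter on low counts, against 13, and 11 to 22 with a heifer left out (22 without FH heifer 24, 20 without SFH heifer 26). After adjustment, 2 miRNAs passed in DESeq2 and 0 in the other settings. The log2 fold change of miR-16a was −0.00078 with RLE size factors, −0.00073 in DESeq2, −0.022 with the filter in all 14 heifers, −0.046 with every precursor entry kept, and −0.074 to 0.097 with a heifer left out, below 0 without FH heifers 25, 27 or 31 or SFH heifers 26 or 30. That of miR-195 was −0.017 in limma-voom. That of miR-15a was −0.021 to 0.16 with a heifer left out, below 0 without FH heifer 25. The log2 difference in the family total was 0.031 by library totals and 0.031 by deposited CPM, against −0.038 with TMM. It was −0.058 with RLE size factors and −0.061 without miR-16a in the sum. With a heifer left out it was −0.10 to 0.012 (above 0 without FH heifers 20 or 29 or SFH heifer 17). The log2 difference of miR-15b to miR-15a was −0.46 to −0.24 with a heifer left out, with an adjusted exact permutation p-value of 0.0373 without FH heifer 27, and that of miR-16b to miR-15b was 0.28 to 0.46, with 0.0210 without the same heifer. For all other heifers left out, both stayed above an adjusted p-value of 0.05. The CV of miR-16b in FH was 11.3% without heifer 25. Pearson's r of miR-16a with miR-497 was 0.043 on deposited CPM, and that of miR-16b with miR-497 was −0.018 with RLE size factors and −0.080 on group-centred values. With a heifer left out, r ran from −0.36 to 0.037 for miR-15a with miR-195, −0.092 to 0.30 for miR-15a with miR-497, −0.028 to 0.41 for miR-16a with miR-195, −0.24 to 0.13 for miR-16a with miR-497, −0.26 to 0.37 for miR-16b with miR-195, −0.33 to 0.16 for miR-16b with miR-497 and −0.062 to 0.29 for miR-195 with miR-497. For the family total it ran from 0.30 (without FH heifer 25) to 0.67 (without SFH heifer 28) with the list for all leukocytes, 0.028 (without SFH heifer 28) to 0.45 (without FH heifer 25) with the epithelial list, 0.30 (without SFH heifer 30) to 0.62 (without SFH heifer 17) with the granulocyte and monocyte marker, 0.23 (without FH heifer 20) to 0.52 (without SFH heifer 21) with the skeletal and heart muscle list, −0.32 to 0.25 with the erythroid list, −0.41 to 0.019 with the liver marker and −0.057 to 0.11 with the platelet and endothelial list. The cause of these changes was not tested. Of the members, miR-497 and miR-195 had the fewest counts, at 0 to 62 and 33 to 376 per heifer. The part of depth in their values was not tested. No paired analysis of FH against SFH was made, because each library is a different heifer and the labels match no FH heifer to an SFH heifer.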
